A study of Mus musculus with 8 samples.

Results

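The control pre-iPSCs of this study were described here from 3 of its 8 arrays, those from mouse pre-iPSCs given siRNA against luciferase. No mouse gene encodes luciferase, so this siRNA serves as the non-targeting control. These 3 arrays were chosen by their labels alone, and no knockdown was compared. Signal was ranked over 18193 genes to show which pluripotency, lineage and chromatin genes these cells held above background and which they did not.

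The other arrays of the study come from cells given siRNA against Cbx3, or against Ehmt1, Ehmt2 and Setdb1 together, and enter here only through some alternative settings. All cells were cultured in medium for embryonic stem cells and kept with siRNA for 3 days before RNA was taken. The labels name no mouse strain, no starting cell, no vector and no set of reprogramming factors, and do not say whether the cells were 1 clone or grew on feeder cells. They call the 3 control samples biological replicates without saying what was repeated, so every p-value measures only the spread between these 3 samples, which may be technical.

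Pre-iPSCs are cells that started on the way from a somatic cell to an induced pluripotent stem cell and stopped before reaching it. In embryonic stem cells, Pou5f1 (Oct4), Sox2 and Nanog bind many of the same enhancers and keep each other and a wider naive network, with Esrrb, Klf2, Tfcp2l1, Zfp42 and others, active. Reprogramming is known to silence the somatic programme and restore an epithelial state early and to switch on the endogenous pluripotency network late, against barriers that include H3K9 methylation and DNA methylation.

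The promoters of 6 pluripotency genes are shown first, because genes above and below background differed in promoter CpG content and these 6 fell on different sides. Pou5f1, Klf4, Sox2 and Zfp42 lay above background, as defined after the sequences, while Nanog and Lin28a lay below it. Each line gives the 150 bases just before the annotated start of transcription, 5′ to 3′ on the gene's strand, taken from RefSeq promoters of GRCm38.p6, with each CG in capitals.

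Pou5f1: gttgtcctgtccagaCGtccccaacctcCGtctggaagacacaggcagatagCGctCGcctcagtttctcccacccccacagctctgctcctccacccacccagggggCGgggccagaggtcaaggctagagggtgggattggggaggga
Klf4: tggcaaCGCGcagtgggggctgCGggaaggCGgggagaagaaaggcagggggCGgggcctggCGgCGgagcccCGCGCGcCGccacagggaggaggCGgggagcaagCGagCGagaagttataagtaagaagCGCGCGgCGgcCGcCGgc
Sox2: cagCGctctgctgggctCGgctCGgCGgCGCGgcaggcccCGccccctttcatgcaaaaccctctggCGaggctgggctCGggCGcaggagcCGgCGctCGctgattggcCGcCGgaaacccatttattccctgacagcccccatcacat
Nanog: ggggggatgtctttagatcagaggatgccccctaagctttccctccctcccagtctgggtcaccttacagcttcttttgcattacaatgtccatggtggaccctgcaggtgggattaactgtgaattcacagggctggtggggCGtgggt
Lin28a: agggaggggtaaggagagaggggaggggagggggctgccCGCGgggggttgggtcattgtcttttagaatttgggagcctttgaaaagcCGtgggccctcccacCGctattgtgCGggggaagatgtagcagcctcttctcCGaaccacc
Zfp42: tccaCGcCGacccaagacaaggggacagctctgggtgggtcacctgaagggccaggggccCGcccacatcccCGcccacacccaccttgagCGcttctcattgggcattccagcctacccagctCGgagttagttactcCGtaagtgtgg

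The Pou5f1 stretch lies at chr17:35505882-35506031 on the plus strand and holds 5 CG. The Klf4 stretch, at chr4:55532476-55532625 on the minus strand, holds 20, and the Sox2 stretch, at chr3:34649845-34649994 on the plus strand, holds 15. The Zfp42 stretch, at chr8:43307010-43307159 on the minus strand, holds 7. The Lin28a stretch, at chr4:134018817-134018966 on the minus strand, holds 6. The Nanog stretch, at chr6:122707339-122707488 on the plus strand, holds 1. Over the full promoter window of 300 bases, the ratio of observed to expected CpG was 0.97 for Klf4, 0.82 for Sox2, 0.44 for Zfp42, 0.37 for Pou5f1, 0.35 for Lin28a and 0.19 for Nanog. The bright genes thus covered ratios from 0.37 to 0.97, and the dim ones had the lowest of the 6. Pou5f1 and Nanog have 2 annotated starts each, and the stretch before the start farthest upstream is printed. The octamer core ATGCAAA, the letters read by Oct4, was searched on both strands. It occurred in the full windows of Sox2, Nanog and Zfp42, for Zfp42 outside the printed stretch, and in 4.63% of the 32851 windows of the same length.

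The deposited values are log2 signals from RMA, a method that corrects background, gives all arrays the same distribution and summarises the probes of a probe set. A probe set is a group of short probes for 1 transcript, and probe sets differ in how well they bind. A rank by signal is therefore no rank by amount of RNA, and each gene was judged against a level for absent transcripts instead. That reference level was each array's 95th percentile over 76 genes for odorant, pheromone and taste receptors, which few cells outside sensory tissue express. It came to 5.93, 6.19 and 6.14 on control 1, 2 and 3. Of these receptor genes 68 lay below the level, 6 were undecided and 2 lay above it (Vmn1r44 at 6.88 and Olfr15 at 6.51). This split largely follows from setting the level on the same genes, so it is no check of the level. Each gene was read at its brightest probe set. The 76 receptor genes have 84 probe sets, while all 18193 genes have 34945. Choosing the brightest therefore lifts genes with several probe sets more than the receptors, by an amount that was not tested. A set of 27 control probe sets for bacterial genes (dap, lys, phe, thr and trpn), chosen after their values were seen, lay between 2.52 and 6.23. Any other bacterial controls were left out. Signal below the level does not show that a transcript is absent, and signal above it can come from few cells or from many. In RNA from a whole culture, fewer expressing cells and less RNA per cell cannot be told apart.

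By limma's moderated test of the distance from the reference level, with Benjamini-Hochberg adjustment over all genes, 10247 of 18193 genes (56.3%) lay above and 6375 (35.0%) lay below. The other 1571 genes were undecided. Later counts for lists and families are to be read against these 56.3% above and 35.0% below. The middle gene had a signal of 7.09, the brightest 10% of genes began at 10.61, and signals ran from 2.41 to 14.51. The median SD over the 3 arrays was 0.180, and it was 0.211 for genes above the level and 0.142 for genes below it. Of 6528 genes above the level that have a second-brightest probe set (called the second probe set here), that one was also above it for 4248 (65.1%) and below it for 1345 (20.6%). Across genes, which are not independent replicates, Pearson's r was 0.992 between control 1 and 2, 0.986 between 1 and 3 and 0.987 between 2 and 3.

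**Figure D1:**
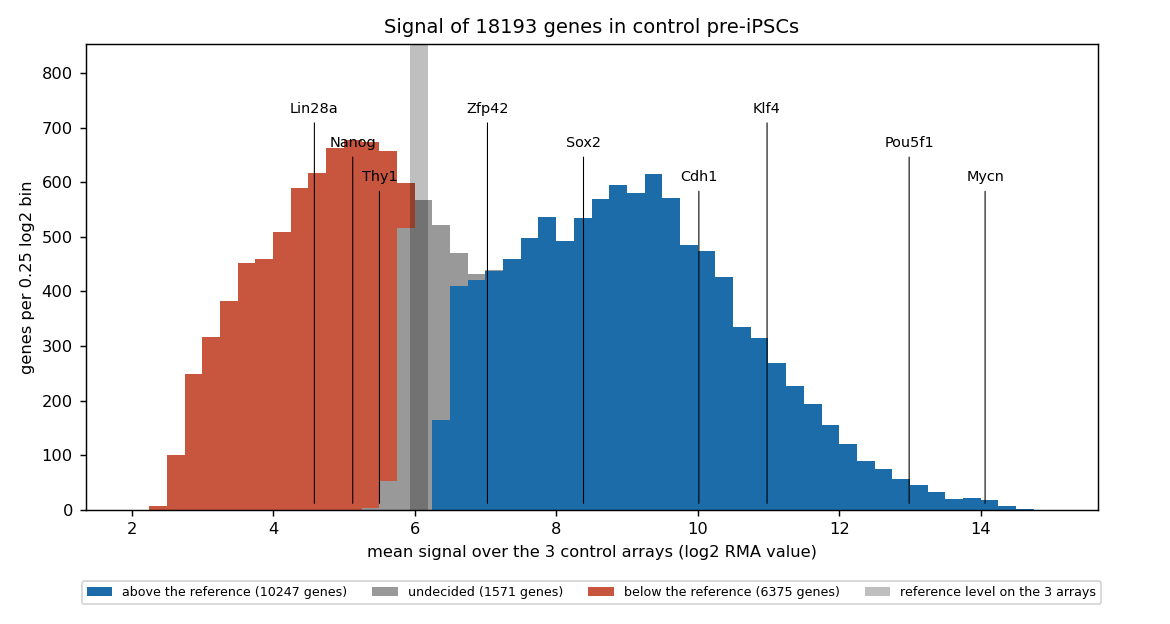
Number of genes (vertical axis, per 0.25 log2 bin) by mean log2 RMA signal over the 3 control arrays (horizontal axis), coloured by call, with the range of the reference level shaded and 9 genes marked. The 6375 genes below and the 10247 genes above the level form separate humps, with Lin28a, Nanog and Thy1 in the left one and Klf4, Pou5f1 and Mycn in the right one.

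The brightest genes were those of protein synthesis. Of the 30 brightest, 24 encode ribosomal proteins, and of the 100 brightest, 36 do. The others among the 30 were Eef1a1 (translation elongation factor), Actb (beta-actin), Tmsb10 (an actin-binding thymosin), Tpt1 (a growth-related protein, with a second probe set at 3.93), Hspa8 (a chaperone) and Mycn. Over whole families chosen after the data were seen, 46 of 49 cytosolic ribosomal protein genes, 37 of 39 proteasome subunit genes and 33 of 34 genes for subunits of mitochondrial complex I lay above the level. The ribosomal exceptions were the tissue-restricted paralogs Rpl39l (5.03) and Rpl3l (3.67), and Rps16 (3.50). Rps16 shows the limit of the naming rule, since further probe sets list it beside other symbols and only probe sets with 1 symbol were used. Each of the 17 measured housekeeping genes lay above the level, with a median of 13.29.

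Of the 12 measured core and reprogramming factors, 8 lay above the level, 1 was undecided and 3 lay below it, against the 56.3% above and 35.0% below among all genes. Pou5f1, the POU factor at the centre of pluripotency, had signals of 13.23, 13.14 and 12.59 on control 1, 2 and 3. All 3 arrays placed it far above the reference level, by 6.90 on the log2 scale (SE 0.175, adjusted p = 3.2e-07 by limma), and it ranked 150 of 18193. Mycn, a Myc-family factor abundant in embryonic stem cells, had signals of 14.12, 14.07 and 13.99, and ranked 22. Its 3 probe sets were all above the level. Klf4, a zinc finger factor used in reprogramming, had signals of 11.57, 11.18 and 10.20, with control 3 lowest. Its second probe set averaged 6.84 and was undecided. Myc, which drives growth and is a reprogramming factor too, had signals of 10.79, 10.57 and 9.60, and control 3 was again lowest. Sox2, the partner of Oct4 on DNA, had signals of 7.56, 9.34 and 8.27, a mean of 8.39 ± 0.89 (SD, n = 3). Every array held Sox2 above the level, by 2.30 on average (adjusted p = 0.000245 by limma), with the largest spread of these factors after Lin28a. Sall4, a zinc finger partner of Oct4, averaged 10.74 and Glis1, a factor that promotes early reprogramming, averaged 6.88. Utf1, a chromatin-bound factor of undifferentiated cells, averaged 8.38, but its second probe set lay at 5.19.

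Nanog, the homeodomain factor needed to enter the naive state, had signals of 4.87, 5.10 and 5.41, a mean of 5.13 ± 0.27 (SD, n = 3). It was below the reference level on all 3 arrays, by 0.96 on average (adjusted p = 0.000337 by limma). Lin28a, which binds RNA and blocks let-7 maturation, had signals of 3.66, 5.54 and 4.55. It too was below the level on all 3 arrays, although its signals ranged over 1.88, more than its mean distance of 1.50 from the level (adjusted p = 0.00262 by limma). Mycl, another Myc-family gene, averaged 5.56 and lay 0.53 below the level, and without control 3 it was undecided at a distance of -0.33. Esrrb, an orphan nuclear receptor of the naive network, had signals of 6.10, 6.38 and 6.30. These stood on the reference level itself, and the call was undecided (adjusted p = 0.158 by limma). The labels do not say whether the cells carried introduced copies of Pou5f1, Sox2, Klf4 or Myc, so signal from such copies and from the chromosomal genes cannot be told apart.

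**Figure D2:**
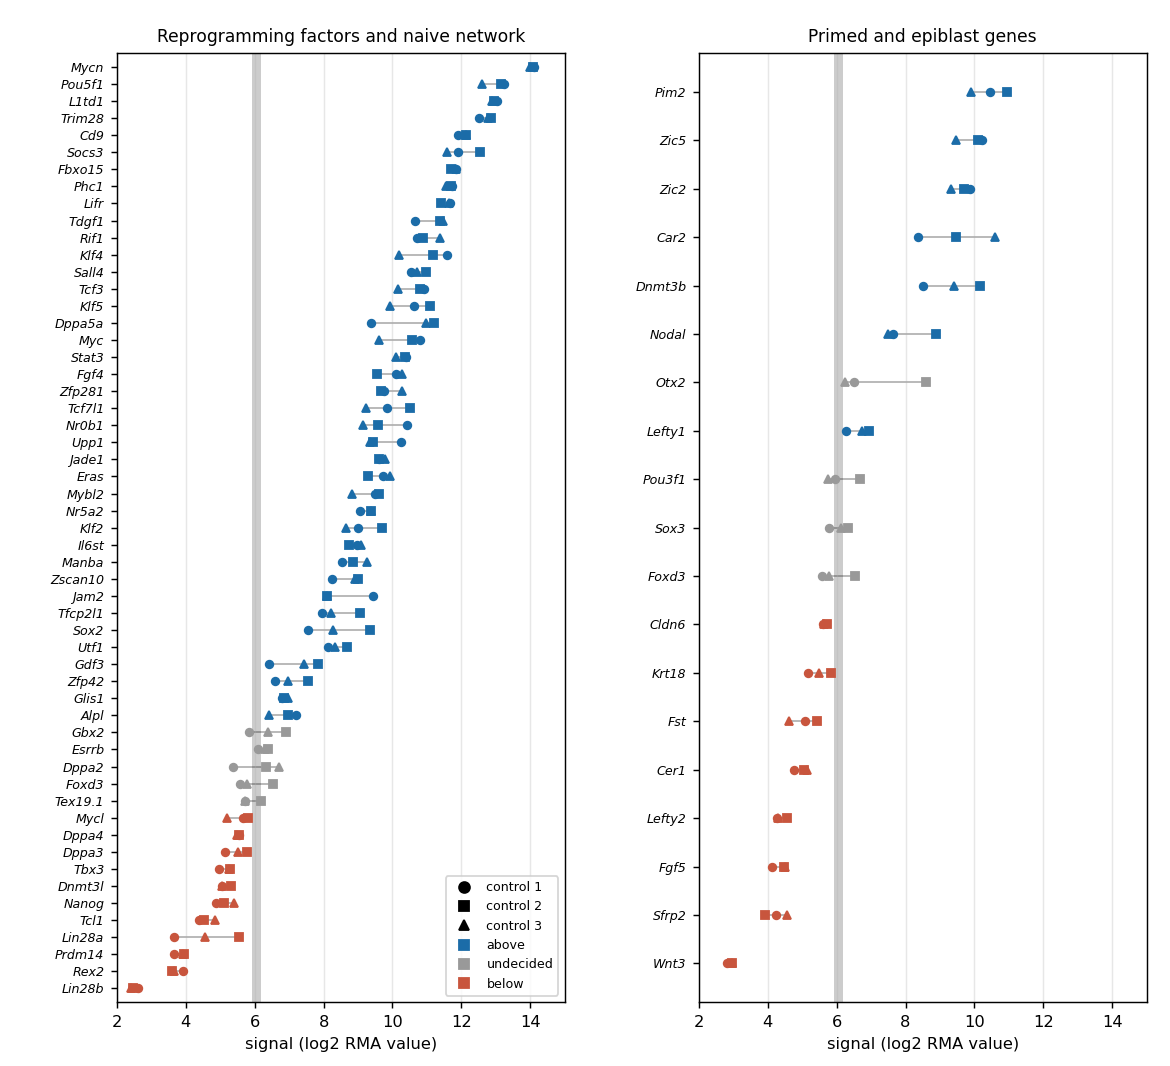
Log2 RMA signal on each control array (horizontal axis; circle, square and triangle for control 1, 2 and 3) for the core factors and the naive network (left) and the primed and epiblast genes (right), coloured by call, with the reference level shaded. Mycn, Pou5f1 and L1td1 lie near 13 to 14, Esrrb lies on the level, and Nanog, Lin28a and Lin28b lie left of it on all 3 arrays.

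Of the 48 measured genes of the naive network, 33 lay above the level (68.8%), 5 were undecided and 10 lay below it (20.8%). Their median was 9.02, against 7.09 over all genes. The list is not specific to the naive state. Some of its members above the level, such as Trim28, Phc1, Stat3 and Socs3, are counted in other lists here too, and Tcf7l1 represses naive genes. On the bright side stood L1td1 (an RNA-binding protein of pluripotent cells) at 12.96, Trim28 (the KAP1 corepressor) at 12.72, Cd9 (a surface tetraspanin) at 12.06 and Socs3 (a feedback inhibitor and target of LIF signalling) at 12.01. Fbxo15, an Oct4 and Sox2 target long used as a reprogramming reporter, had signals of 11.85, 11.71 and 11.84. Its 3 arrays were nearly equal. Fgf4, the growth factor whose enhancer binds Oct4 and Sox2, had signals of 10.11, 9.56 and 10.29. Nr0b1 (Dax1, a nuclear receptor that binds Oct4) had signals of 10.42, 9.58 and 9.14, highest on control 1. Dppa5a, an RNA-binding gene of pluripotent cells, had signals of 9.37, 11.19 and 10.98, lowest on control 1. Tdgf1 (the Nodal co-receptor Cripto) averaged 11.16, Klf5 averaged 10.55, Klf2 averaged 9.10 and Nr5a2, a nuclear receptor that can take the place of Oct4 in reprogramming, averaged 9.27. Tfcp2l1, a LIF-responsive factor, had signals of 7.96, 9.06 and 8.22 at its brightest probe set, but the next lay at 3.38. Zfp42 (Rex1), a widely used marker of the naive state, had signals of 6.59, 7.53 and 6.97. Each array put it above the level, by 0.94 on average (adjusted p = 0.00129 by limma), which is close to the middle of all genes.

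The dim side of the naive list held Lin28b (2.50), Rex2 (3.72), Prdm14 (3.83), Tcl1 (4.58), Tbx3 (5.17), Dnmt3l (5.13), Dppa3 (5.48) and Dppa4 (5.52) beside Nanog and Lin28a. Prdm14 is a repressor of the primed state and of DNA methyltransferases, and Tbx3 is a T-box factor downstream of LIF. Dppa3 (Stella) shields DNA methylation in the zygote, and Dppa4 is a chromatin-bound partner of Dppa2. Dppa4 had signals of 5.55, 5.54 and 5.48, so it lay 0.57 below the level (adjusted p = 0.00349 by limma). With the level at the 90th instead of the 95th percentile of the receptor genes, Dppa4 (-0.28, adjusted p = 0.126) and Dppa3 (-0.33, adjusted p = 0.0737) were undecided. Dppa2 had signals of 5.37, 6.32 and 6.71 and was undecided, lowest on control 1. Gbx2 (6.38), Foxd3 (5.96) and Tex19.1 (5.87) were undecided too, although without control 1 Gbx2 stood 0.48 above the level and was called.

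Of the 19 measured genes of the primed state and the epiblast after implantation, 7 lay above the level (36.8%). A further 4 were undecided and 8 lay below it (42.1%). The list's median was 6.07. Fgf5, the classic marker of primed cells, had signals of 4.11, 4.48 and 4.50, all well below the level. Wnt3, a ligand of the posterior epiblast, averaged 2.92 and was the dimmest of the list. Zic5 (9.93) and Zic2 (9.63), zinc finger factors of the primed epiblast, and Pim2 (10.43), a kinase of the LIF pathway, lay above it. Otx2, the homeobox factor that drives cells out of the naive state, had signals of 6.49, 8.60 and 6.24 and was undecided, since control 2 alone stood clearly above the level. Without control 3 it was called above, by 1.48, although control 1 and control 2 lie far apart for this gene. Among named genes whose call changed without control 3, limma's adjusted p fell steadily with distance from the level, whatever the gene's spread. Such a call therefore does not reflect the gene's own spread.

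A fibroblast is the usual starting cell of reprogramming, although the labels do not say that it was here. Of the 47 measured fibroblast and mesenchymal genes, 18 lay above the level (38.3%), 6 were undecided and 23 lay below it (48.9%). The list's median was 5.66. Thy1, the surface marker by which fibroblasts are sorted, had signals of 5.27, 5.58 and 5.65. Col1a1, the main chain of fibrillar collagen, had signals of 5.20, 5.16 and 5.13. Both were below the level on all 3 arrays, Thy1 by 0.58 (adjusted p = 0.00214 by limma) and Col1a1 by 0.92 (adjusted p = 0.000329 by limma). With the level at the 90th percentile of the receptor genes Thy1 was undecided (-0.30, adjusted p = 0.098 by limma). Col3a1 (4.87), Postn (4.73), Lum (4.47), Fap (3.57), Cdh11 (3.43) and Pdgfrb (5.26), further matrix and surface genes of fibroblasts, lay below it as well. Dcn (6.24) and Col1a2 (6.09), for a proteoglycan and the second chain of the same collagen, were undecided.

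Other mesenchymal genes were bright. Vim, which encodes the intermediate filament vimentin, had signals of 13.35, 13.37 and 13.52, and its mean ranked 79. Fstl1 (a secreted glycoprotein) averaged 13.25, Cd44 (the hyaluronan receptor) 12.57 and Fn1 (fibronectin) 12.39. Sparc (a matrix glycoprotein) averaged 11.01, and S100a4, a calcium-binding protein also called fibroblast-specific protein, had signals of 11.27, 10.31 and 11.69. Several of these genes are also expressed in embryonic and endoderm cells, so the list is not specific to fibroblasts.

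The regulators of the epithelial to mesenchymal transition, which turn the E-cadherin gene off, were split. Zeb1 had signals of 10.04, 9.91 and 10.19, all far above the level. Zeb2 (5.66), Snai1 (5.20), Twist1 (5.26) and Twist2 (5.52) lay below it, and Snai2, with 6.44, 5.54 and 6.11, was undecided. Zeb2 lay only 0.43 under the level and was undecided without control 2 (-0.39) or control 3 (-0.35). Cdh2, for the mesenchymal N-cadherin, had signals of 9.56, 9.54 and 9.88.

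Of the 38 measured epithelial genes, 24 lay above the level (63.2%), 5 were undecided and 9 lay below it (23.7%), with a median of 7.21. Among all genes 56.3% lay above and 35.0% below, with a median of 7.09, so the list as a whole stood near all genes. Cdh1, for E-cadherin, had signals of 9.64, 10.83 and 9.59, highest on control 2. Epcam, an epithelial adhesion molecule also found on embryonic stem cells, had signals of 10.65, 11.70 and 11.16. Both lay above the level on all 3 arrays, Cdh1 by 3.93 (adjusted p = 6.71e-06 by limma) and Epcam by 5.08 (adjusted p = 7.11e-07 by limma). Thus signal for E-cadherin and signal for N-cadherin were found in the same RNA, which does not show that they were in the same cells. Among desmosome genes, Dsg2 (10.49), Pkp2 (9.80), Dsp (9.27) and Jup (9.25) stood above the level too, while Dsc2 (5.38) lay below it. Spint2 (10.94) and Spint1 (9.53), inhibitors of epithelial proteases, and Esrp1 (8.92), a splicing regulator of epithelial cells, were above the level. Grhl3 (7.99) and Elf3 (8.44), epithelial transcription factors, were above it as well.

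Not all epithelial genes were bright. Krt8 (7.99) and Krt19 (10.79), keratins of simple epithelia, lay above the level, while Krt18 (5.50), the usual filament partner of Krt8, and Krt7 (5.05) lay below it. Cldn3 (7.93) and Cldn4 (7.16), tight junction claudins, were above it, Cldn7 (5.66) was undecided but called below without control 2 (-0.69), and Cldn6 (5.64) and Marveld2 (3.92, tricellulin) were below it. Ovol1 (4.88), a repressor of mesenchymal genes, was also below. Families chosen after the data were seen gave the same mixed picture. Above the level lay 10 of 48 keratins, 6 of 20 claudins, 10 of 42 collagens and 5 of 21 cadherins, against 56.3% of all genes. Of the laminins, 6 of 10 lay above it (60%, near the share of all genes), led by Lamc1 at 10.35. Of the integrins 10 of 25 did (40%), led by Itga6 at 12.03, a laminin receptor subunit of embryonic stem cells.

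**Figure D3:**
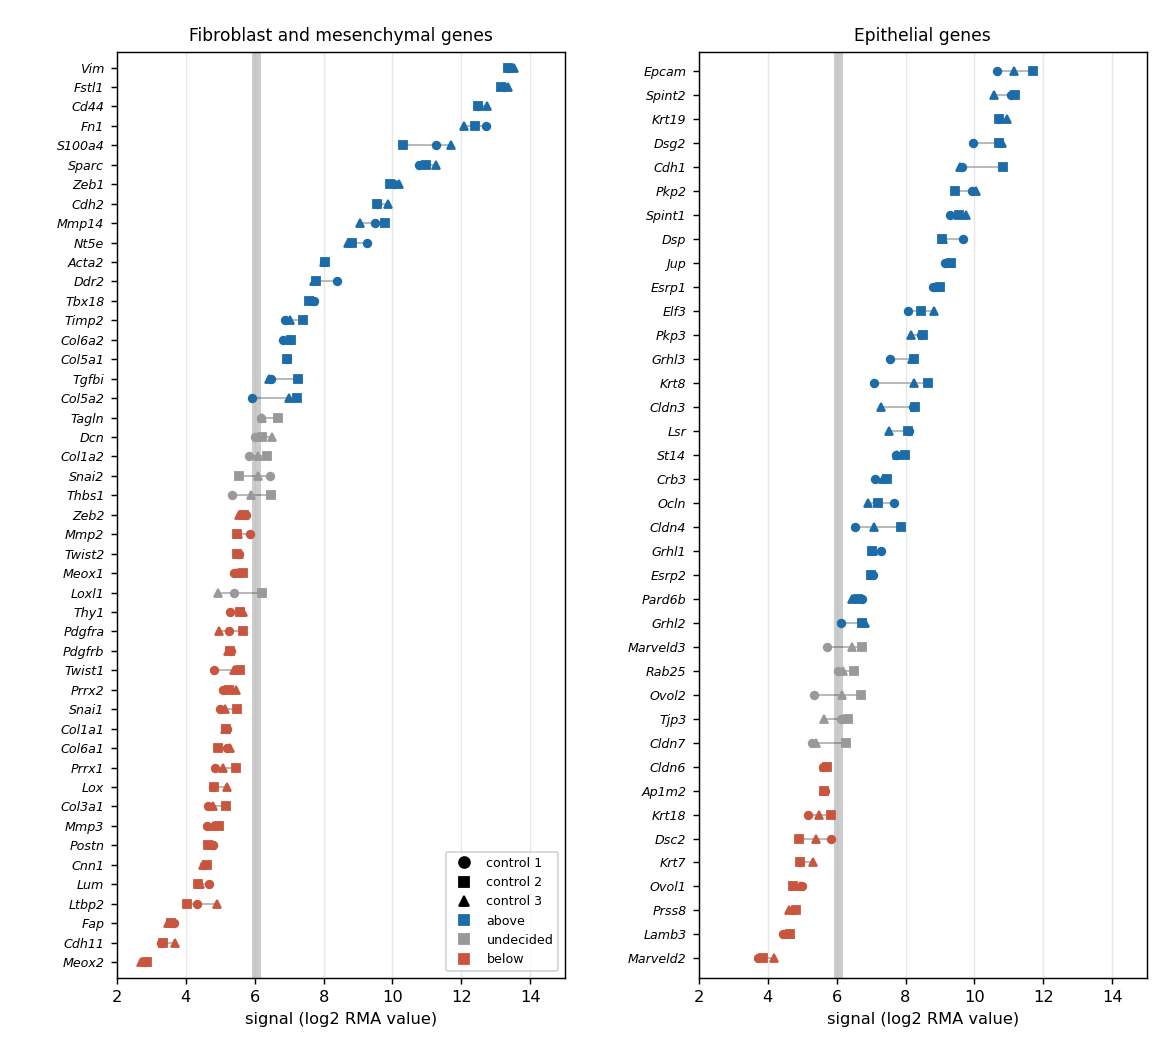
Log2 RMA signal on each control array (horizontal axis) for the 47 fibroblast and mesenchymal genes (left) and the 38 epithelial genes (right), in order of the mean and coloured by call, with the reference level shaded. Thy1, Col1a1 and Twist1 lie below the level on all 3 arrays beside bright Vim, Cd44 and Zeb1, while Epcam and Cdh1 lie far above it.

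Of 31 primitive endoderm genes, 11 lay above the level (35.5%), 3 were undecided and 17 lay below it (54.8%). The lineage's transcription factors Gata6 (5.42), Gata4 (5.51), Sox17 (5.70), Sox7 (4.17) and Foxa2 (5.39) were below it. Gata4 gave 5.51, 5.52 and 5.51, so the arrays were almost identical. Sox17, at 0.39 under the level, was undecided without control 1 (-0.25) or control 2 (-0.40). With the level at the 90th percentile of the receptor genes Gata4 (-0.29), Gata6 (-0.39) and Sox17 (-0.11) were undecided. Of the basement membrane genes that this lineage secretes, Lamc1, Lamb1 (10.12), Col4a1 (8.64), Nid1 (7.99), Nid2 (7.96) and Col4a2 (7.95) were above it and Lama1 (5.71) was below it, undecided without control 1 (-0.41) or control 2 (-0.22) and at the 90th percentile (-0.10). The secreted Afp (4.76), Fst (5.04), Ihh (5.32) and Dkk1 (3.72) were below it as well. Srgn, a proteoglycan of parietal endoderm and of blood cells, had signals of 13.28, 12.77 and 12.64, and Apoe, a lipid carrier, averaged 10.90.

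Of 28 trophoblast genes, 11 lay above the level (39.3%), 8 were undecided and 9 lay below it (32.1%, near the 35.0% of all genes). Cdx2, the homeobox gene that starts the lineage, had signals of 6.20, 6.15 and 6.40 and was undecided. Elf5 (4.46) and Gata3 (4.75), which act with it, were below the level, as was Tpbpa (3.42), a marker of the spongiotrophoblast. Tfap2a had signals of 11.12, 11.11 and 10.21, and Tfap2c, its relative in the same AP-2 family, had 7.72, 8.46 and 8.87. Both lay above the level on all 3 arrays, but these factors also act in ectoderm and germ cells. Eomes, a T-box factor of trophoblast and mesendoderm, averaged 7.06. Rhox6, with 5.20, 6.61 and 7.78, and Rhox9, with 5.58, 6.84 and 7.85, X-linked homeobox genes, were undecided and lowest on control 1. Without control 1 both were called above, Rhox6 by 1.03 and Rhox9 by 1.18.

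Of 25 mesendoderm genes, 3 lay above the level, 5 were undecided and 17 lay below it, with a median of 5.39. Nodal, a TGF-beta family ligand also made by embryonic stem cells, had 7.62, 8.87 and 7.50, highest on control 2. The others were Kdr (7.17), a VEGF receptor, and Eomes. Mixl1 (5.45), Gsc (3.90), Evx1 (5.33) and Tbx6 (4.62), factors of the primitive streak and its mesoderm, lay below it. The gene T (brachyury) had no probe set with its symbol alone and was not analysed here.

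Of 39 neural genes, 11 lay above the level (28.2%), 10 were undecided and 18 lay below it (46.2%), with a median of 5.83. Stmn2, a microtubule regulator of growing neurites, had signals of 12.41, 12.36 and 13.06, and ranked 243. Olig1, a bHLH factor of the oligodendrocyte lineage, had signals of 10.57, 10.90 and 10.30. Both were far above the level on all 3 arrays. Elavl2 (a neuronal RNA-binding protein) averaged 9.28 and Nes (nestin, of neural progenitors) 8.85. Sox1, the earliest marker of neural fate, had signals of 6.56, 8.98 and 6.63, and its second probe set lay at 5.21. Its mean distance above the level, 1.30, was 0.56 without control 2. Among genes of differentiated neurons, Map2 (8.24), Ncam1 (8.15), Nefl (7.54) and Rbfox3 (6.79) lay above the level, with the second probe set at 5.04 for Map2 and at 5.29 for Rbfox3. Pax6 (5.10), Neurog2 (4.46), Neurod1 (5.10), Tubb3 (4.94), Dcx (4.51), Nefm (3.62), Snap25 (2.82) and En1 (2.69) all lay below the level.

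Genes of other cell types that a culture might hold were counted in the same way. Of 29 macrophage and blood genes, 6 lay above the level (20.7%), 2 were undecided and 21 lay below it (72.4%). The list's median was 4.89. Ptprc (CD45, 3.39), Tyrobp (4.53), Adgre1 (F4/80, 4.36) and Itgam (3.94), which define leukocytes and macrophages, were below the level, while Laptm5 (9.10), a lysosomal membrane gene, was above it. The other 5 above it were Cd14 (7.67), Cd68 (7.55), Gata1 (7.43), Csf1r (6.61) and Runx1 (6.57), with the second probe set of Csf1r at 5.97. Runx1 was undecided without control 1 (0.42) or control 2 (0.42). Of 15 endothelial genes 7 lay above (46.7%, against 56.3% of all genes) and 8 below (53.3%, against 35.0%). Eng (7.50), Egfl7 (7.50), Tek (7.31), Kdr, Esam (6.79), Flt1 (6.55, second probe set at 5.09) and Sox18 (6.50) lay above. Tek was undecided without control 1 (0.81), and Sox18 without control 1 (0.39) or control 2 (0.26). The genes below included the defining junction genes Pecam1 (3.91) and Cdh5 (4.59). Of 20 muscle genes, 3 lay above, 3 were undecided and 14 lay below. Mylpf, a fast skeletal myosin light chain, had 7.51, 9.75 and 9.44, while the muscle regulators Myod1 (5.20), Myog (5.11) and Myf5 (2.63) were below the level. Of 22 liver and gut genes, 2 lay above, 3 were undecided and 17 lay below, Alb (4.88), for albumin, among them.

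Germline genes gave the dimmest of the longer lists. Of 44 genes, 3 lay above the level, 3 were undecided and 38 lay below it, with a median of 4.61. Ddx4 (Vasa, 3.10), Dazl (4.11), Mael (2.87), Sycp3 (3.18), Hormad1 (2.87) and Tdrd1 (4.17), which act in germ cell identity, meiosis or the piRNA pathway, were below it on all 3 arrays. Kit, the stem cell factor receptor, had 6.66, 7.51 and 7.74 and lay above it, as did Prm1 (7.19), for protamine, and Gdf9 (6.59), an oocyte growth factor. The second probe set lay at 5.30 for Kit and at 2.67 for Prm1. Of 12 genes active at the 2-cell stage, Eif1a (11.45) and Zfp809 (8.47) lay above the level, Zfp352 (6.02) was undecided and 9 lay below it, Tcstv3 (2.96) and Duxf3 (3.56) among them. Neither bright gene is limited to that stage, since Eif1a is a general translation factor and Zfp809 silences retroviruses in stem cells.

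**Figure D4:**
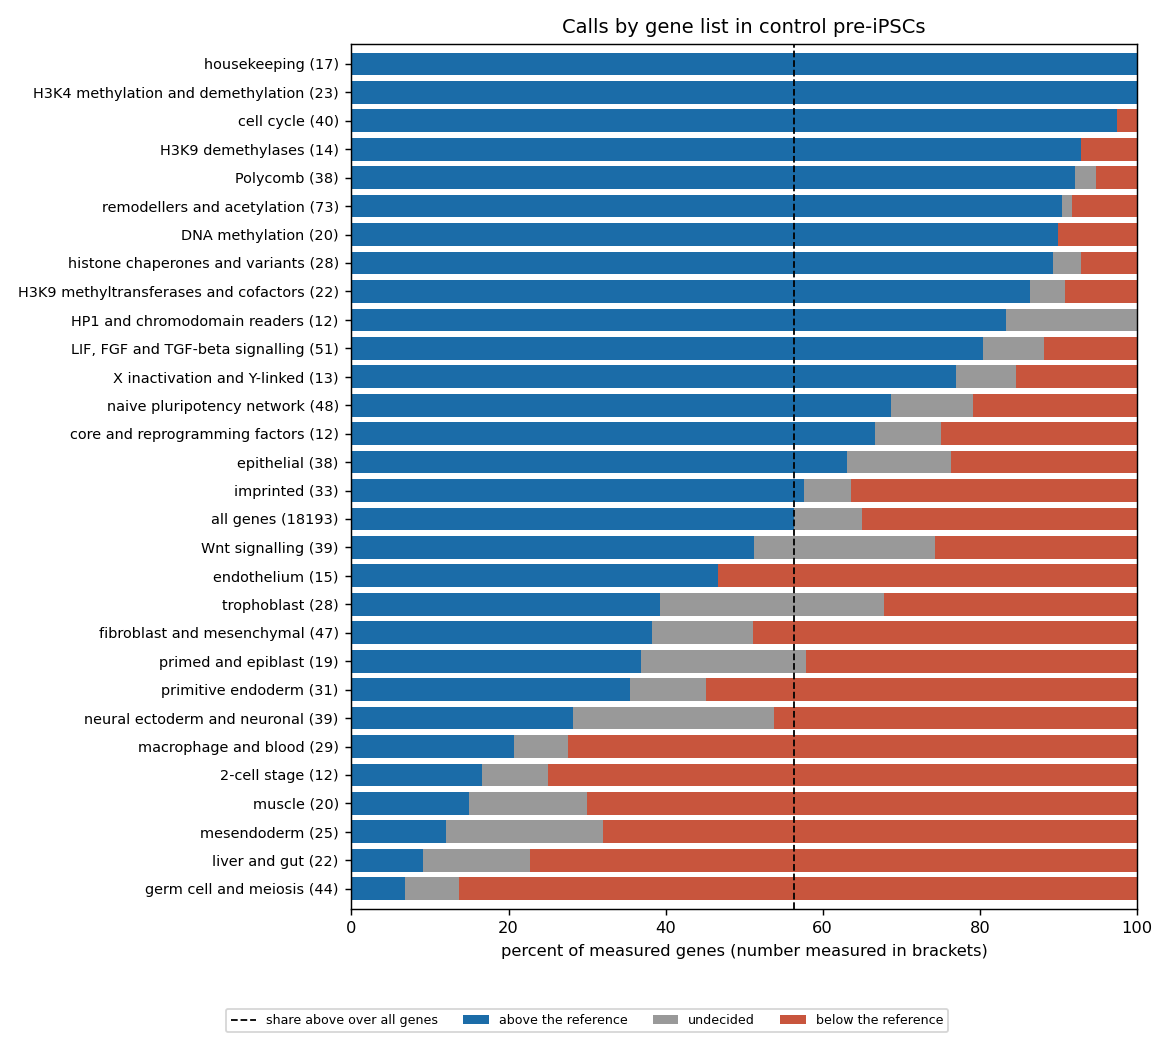
Share of each list's measured genes called above, undecided and below the reference level (horizontal axis, percent) in the control arrays, with all genes as the comparison. Housekeeping, cell cycle and chromatin lists lie at 83.3% to 100% above, and germ cell genes at 6.82%, against 56.3% of all genes.

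The chromatin machinery lay above the level nearly whole. Of 22 genes for H3K9 methyltransferases and their cofactors, 19 lay above the level (86.4%), 1 was undecided and 2 lay below it (9.09%). The list's median was 9.44. Ehmt1 (GLP) had signals of 10.49, 10.58 and 10.90, and Ehmt2 (G9a) had 10.60, 10.35 and 9.68. These partners, which lay down H3K9me2 on euchromatin, were above the level on all 3 arrays, and control 3 was the highest for one and the lowest for the other. Setdb1, which lays down H3K9me3 on retroelements, had signals of 9.35, 9.53 and 9.62, although the dimmer of its probe sets lay lower, with the second at 5.56. Suv39h2, an H3K9me3 enzyme of constitutive heterochromatin, averaged 8.41. Its relative Suv39h1 had no probe set with its symbol alone and was not analysed here. Trim28, which recruits Setdb1 to zinc finger proteins, averaged 12.72 and Uhrf1, which ties H3K9 methylation to maintenance of DNA methylation, averaged 12.09. Prdm16 (5.80) and Mecom (5.74), which are active in blood and other tissues, lay below it by 0.29 and 0.34. Prdm16 was undecided without any 1 of the 3 arrays (-0.27 to -0.30), and Mecom without control 2 (-0.33) or control 3 (-0.31).

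Of 12 HP1 and chromodomain genes, 10 lay above the level and 2 were undecided. Cbx5 (HP1 alpha) had signals of 11.33, 11.11 and 11.59 and Cbx1 (HP1 beta) had 10.99, 11.07 and 11.05. Both were far above the level on all arrays. Cbx3 (HP1 gamma), with 5.77, 6.18 and 6.14, was undecided at the 1 probe set that lists its symbol alone. A further 4 probe sets list Cbx3 beside another symbol and were not used, so this value says little about HP1 gamma.

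RNA signal for enzymes that remove H3K9 methylation was found beside signal for those that add it. Of 14 genes, 13 lay above the level, with a median of 9.48, and only Kdm4d (3.73), a testis-biased member, lay below it. Kdm1a (LSD1) averaged 11.53, Jmjd1c 11.29, Kdm3a 10.96, Kdm4c 10.26 and Kdm3b 9.89. Kdm3a had signals of 10.78, 10.90 and 11.18, and Kdm4c had 10.09, 9.97 and 10.71, so that control 3 was highest for both.

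Of 38 Polycomb genes, 35 lay above the level, 1 was undecided and 2 lay below it. The core of Polycomb repressive complex 2, which writes H3K27me3, was bright. Ezh2, the catalytic subunit, had signals of 11.42, 11.34 and 11.69, Eed had 11.04, 11.19 and 11.17, and Suz12 had 11.77, 11.69 and 12.32. No subunit ranged over more than 0.63 between the arrays, and the second probe set of Eed lay at 4.25. Jarid2 (11.90) and Mtf2 (11.05), which target the complex in stem cells, and Rnf2 (11.18), the E3 ligase of Polycomb repressive complex 1, stood above the level as well. Cbx7, the chromodomain subunit known as the main one in embryonic stem cells, had signals of 5.60, 5.73 and 5.85 and lay 0.36 below the level, but was undecided without control 2 (-0.31) or control 3 (-0.40). Cbx6 (9.69), Cbx2 (7.86) and Cbx8 (6.84), other subunits that can fill its place, lay above it, but the second probe set of Cbx2 lay at 4.90 and that of Cbx8 at 4.83.

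Each of the 23 measured genes for H3K4 methylation and demethylation lay above the level, from Dpy30 (12.18), a subunit shared by all such methyltransferase complexes, down to Smyd3 (7.54), whose second probe set lay at 5.34. Of 73 remodellers and acetylation genes, 66 lay above it, 1 was undecided and 6 lay below it. Hdac2 (12.14), Smarca5 (11.94), Hdac1 (11.64), Smarcc1 (11.53) and Smarca4 (10.84), the BRG1 ATPase, were among those above. Smarcc1 belongs to the form of the BAF complex found in embryonic stem cells, while Actl6b (4.19), a subunit of the neuronal form, and Brdt (4.41), a testis bromodomain gene, lay below the level. Smarca1 (4.69) and Hdac9 (4.44) did so too. Of 28 histone chaperone and variant genes 25 lay above it, with Npm1 (13.91), H2az1 (13.45) and Set (13.19) brightest, and with the germ line linker histones H1f8 (5.39) and H1f6 (5.29) below it.

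Of 20 DNA methylation genes, 18 lay above the level. Dnmt1, the maintenance enzyme, had signals of 11.76, 11.51 and 11.43. Dnmt3a, a de novo enzyme, had 8.92, 9.28 and 9.06, and Dnmt3b, the other one, had 8.50, 10.16 and 9.41, with control 1 lowest. Dnmt3l, the cofactor of these enzymes in germ cells and naive stem cells, had 5.05, 5.30 and 5.05 and was below the level on every array. Among the enzymes that oxidise methylcytosine, Tet1 had 10.18, 10.06 and 11.09 and Tet2 had 9.57, 9.12 and 9.98, while Tet3, the form of the egg, had 4.92, 5.12 and 5.25. Tet1 and Tet2 were thus above the level and Tet3 below it, and control 3 was the highest in each.

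Signalling genes were read by their place in the pathway. Of 51 LIF, FGF and TGF-beta genes, 41 lay above the level, 4 were undecided and 6 lay below it. The LIF receptor chains Lifr (11.58) and Il6st (8.93), the transducer Stat3 (10.29) and the target Socs3 were above it. Among FGF genes, the receptor Fgfr1 (9.79) and the targets Etv5 (11.66), Dusp6 (10.55) and Spry2 (10.14) stood above the level, while the ligands Fgf2 (3.18), Fgf5 and Fgf8 (3.60) lay below it beside bright Fgf4. Id1, a target of BMP signalling that holds back differentiation, had 12.68, 13.00 and 12.79. The BMP ligand Bmp2 (3.33) was below the level and Bmp4 (5.99) was undecided, while Bmp7 had 1 of 3 probe sets above it, at 6.86. For the Wnt pathway 20 of 39 genes lay above the level (51.3%, near the 56.3% of all genes), 9 were undecided and 10 lay below it. Ctnnb1 (beta-catenin, 13.39), Gsk3b (10.93) and Tcf7l1 (9.86), a repressor of naive genes, lay above it, and the feedback target Axin2 (6.28) was undecided. The ligands were split. Wnt3, Wnt5a (4.34) and Wnt3a (5.43), among others, lay below the level. Wnt7b (7.56), Wnt7a (7.47), Wnt4 (6.82) and Wnt6 (6.44) each had 1 probe set above it, with their others below.

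Of 40 cell cycle genes, 39 lay above the level, with a median of 10.95, and 23 of the 40 were among the brightest 10% of all genes. Pcna averaged 13.57, Mcm7 13.26, Mki67 12.34 and Cdk1 12.06. Ccna1 (4.95), a cyclin of male meiosis, was the exception. Genes that brake the cycle were not dim. Cdkn1a (p21) had signals of 12.33, 12.46 and 12.22, and Cdkn2a (p16 and p19Arf), a locus known as a barrier to reprogramming, had 8.94, 9.12 and 9.08. Both lay above the level on all 3 arrays with little spread.

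Families of transcription factors were taken whole, so that no member was picked. Of 311 such genes, 154 lay above the level (49.5%), 39 were undecided and 118 lay below it (37.9%). Among all genes these shares were 56.3% above and 35.0% below. Each of the 8 E2f, 4 Id, 4 Tead and 4 Sall genes lay above it, and 13 of 16 Klf genes did, led by Klf9 (12.11) and Klf3 (11.90). Of the Lhx genes 0 of 8, of the Dlx genes 0 of 6 and of the Twist genes 0 of 2 lay above it by limma, and the mean of each of these genes was under the level. Of 8 Pax genes only Pax9 (6.38) lay above it, by 0.29, and without any 1 of the arrays it was undecided (0.27 to 0.31). Sox11 (10.90) and Sox4 (10.13), factors of embryonic progenitors, were the brightest of 19 Sox genes. Of these 19 Sox genes, 10 lay above the level (52.6%, near the 56.3% of all genes). Of 33 Hox genes, which record position along the body axis, 13 lay above the level (39.4%). A further 3 were undecided and 17 lay below it (51.5%). Hoxa9 (11.04), Hoxd8 (9.44), Hoxd13 (8.80) and Hoxd9 (8.70) were the brightest, and the second probe set of Hoxd13 lay at 5.88. Foxd1 (11.56), a forkhead gene of stromal cells, and Tbx18 (7.66) and Tbx15 (7.76), T-box genes of mesenchyme, were above the level, and the second probe set lay at 5.10 for Tbx18 and at 5.16 for Tbx15.

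Of 33 imprinted genes, which are expressed from 1 parental copy, 19 lay above the level (57.6%), 2 were undecided and 12 lay below it (36.4%), shares near the 56.3% and 35.0% of all genes. Peg3 had signals of 13.40, 13.40 and 13.50 and Gnas had 12.68, 12.55 and 12.27, with its second probe set at 5.38. In the Dlk1 and Meg3 domain, known for its silencing in some induced pluripotent lines, Meg3 had 6.45, 6.84 and 7.05 and lay above the level, while Dlk1 (5.50), Rian (5.29) and Mirg (5.51) lay below it. Of the sex-linked genes, Kdm5d (9.51), Eif2s3y (9.49) and Uty (8.30), all on the Y chromosome, lay above the level and Usp9y (4.18) below it. The second probe set lay at 4.87 for Kdm5d and at 3.64 for Eif2s3y. Xist, the RNA that coats the inactive X chromosome, had 5.65, 6.18 and 6.04 and was undecided, and its antisense partner Tsix (3.35) was below. Of 618 genes on the X chromosome, 51.5% lay above the level, against 56.6% of genes on the autosomes.

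Promoter CpG content went with the call across genes. Promoter windows running from 250 bases before the start to 50 after it were matched by symbol for 14452 of the 18193 genes. Where a gene had several windows, the one with the highest observed to expected CpG ratio was used, unlike for the printed stretches. This choice favours CpG-rich windows. Among genes with only 1 window, 68.0% of those above the level and 22.0% of those below it were CpG-rich by the definition that follows. A window counted as CpG-rich at an observed to expected ratio of at least 0.6 with GC of at least 55%, and as CpG-poor at a ratio under 0.4. Of the 8375 matched genes above the level, 69.8% had a CpG-rich and 8.44% a CpG-poor promoter. Of the 4864 below it, 23.8% were rich and 55.3% poor, and of the 1213 undecided genes, 42.7% were rich and 38.1% poor. The median number of CpG per window was 23, 7 and 14 in that order. The share of rich promoters climbed with signal from 16.7% among the dimmest 10% of genes to 75.5% in the next-to-brightest 10%, and was 74.0% in the brightest. These shares are a description, since genes are not replicates.

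**Figure D5:**
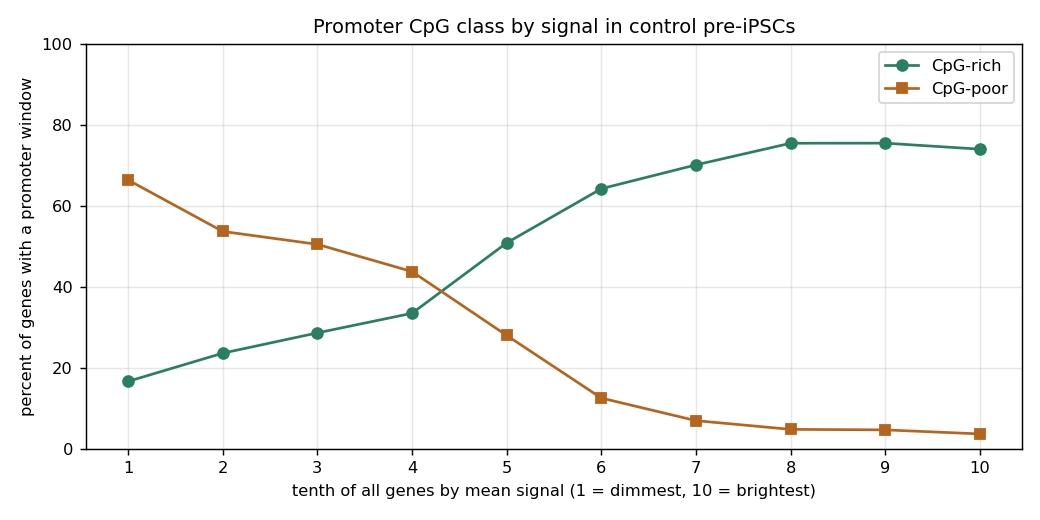
Percent of genes with a CpG-rich or CpG-poor promoter (vertical axis) in 10 equal groups of all genes by mean signal in the control arrays (horizontal axis, 1 dimmest, 10 brightest). The rich share runs from 16.7% to 74.0% and the poor share from 66.4% to 3.67%, and they cross between groups 4 and 5.

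The lists differed in how far they followed this pattern. Of the 36 naive network genes with a matched promoter, 26 lay above the level, 17 of them CpG-rich and 2 CpG-poor, and 6 lay below it, none of them CpG-rich and 4 CpG-poor (Nanog, Rex2, Lin28a and Dnmt3l). Pou5f1, which is not counted in that list, was above the level with a CpG-poor window. Of the 32 germ cell genes below the level with a matched promoter, 15 were CpG-rich and 5 CpG-poor, so that dim germline genes often carried the promoter class of bright genes. Ddx4, Dazl, Mael, Sycp1 and Sycp3 were among the 15. Of 34 matched Polycomb genes 28 were CpG-rich, and of 20 matched H3K9 methyltransferase and cofactor genes 18 were.

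Short motifs were searched on both strands of the same windows, with overlaps between motifs allowed. The TATA box TATAAA was found for 9.52% of the 14452 matched genes, for 6.13% of genes above the level and for 15.2% of genes below it. The ETS site CCGGAAGT was found for 6.28% of the matched genes, for 9.34% of genes above and for 1.77% of genes below. The E2F site TTTCGCGC was found for 0.533% of the matched genes, for 0.80% of genes above and for 0.185% of genes below. The octamer core was found for 3.7% of the matched genes, for 3.19% of genes above and for 4.46% of genes below. The ETS and E2F letters contain CG and so are likelier in CpG-rich windows by their letters alone. A match is a description of letters and not a bound site.

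The 3 control arrays were not equally alike. The 3 signals of a gene ranged over more than 1 on the log2 scale for 1005 genes (5.52%), and control 3 was the array farthest from the other two in 593 of them (59.0%), control 1 in 248 and control 2 in 164. Among the 733 such genes above the level control 3 was lowest in 452 and highest in 178. Probe sets for the 2 ends of the transferrin receptor transcript, which report how complete the labelled RNA is, gave 6.01 (5′) and 6.18 (3′) on control 1, 5.33 and 5.74 on control 2, and 4.70 and 6.45 on control 3. The gap was widest on control 3 for this transcript, where the 5′ signals of control 2 and 3 lay below the reference level. For the pyruvate carboxylase pair the ends gave 6.80 (5′) and 9.07 (3′) on control 1, 7.12 and 8.82 on control 2, and 6.30 and 7.77 on control 3, so that its gap was narrowest on control 3. The beta-actin pair gave 13.87 (5′) and 14.06 (3′) on control 1, 13.98 and 14.19 on control 2, and 13.58 and 14.18 on control 3. Its gap was widest on control 3. The Gapdh pair gave 14.0562 (5′) and 13.9989 (3′) on control 1, 14.0334 and 13.8752 on control 2, and 13.8105 and 14.0448 on control 3. Only on control 3 was its 3′ signal the higher one. The pyruvate carboxylase pair thus went the other way from the other pairs. The part of these gaps in the spread was not tested. A probe set for 18S ribosomal RNA gave 11.2, 12.8 and 10.2 on control 1, 2 and 3.

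The genes above the level with the largest spread did not share 1 pattern. Atf3, a stress-induced factor, had 8.11, 9.39 and 6.65, and Nfix, a nuclear factor of muscle and nerve, had 10.16, 9.79 and 7.88, both lowest on control 3. Insm1 (9.37, 9.68 and 7.47), a zinc finger factor of neuroendocrine cells, was lowest there too. Sgk1 (5.81, 8.03 and 8.06), a serum-induced kinase, Ror1 (6.05, 8.06 and 8.26), a Wnt5a receptor, and Oas1f (6.57, 8.59 and 8.87), of the interferon-induced oligoadenylate synthetases, were lowest on control 1, as was Mylpf. Without control 1 Atf3 was undecided at a distance of 1.86. Without control 2 Sgk1 (0.90) and Ror1 (1.12) were undecided, and without control 1 Sgk1 lay 1.88 above the level. Penk (9.48, 11.46 and 9.29), for proenkephalin, and Sox1 were highest on control 2. Rhox5, an X-linked homeobox gene, had 9.11, 10.18 and 11.43, with control 3 highest. For these genes the mean over 3 arrays stands for a wide range. Of those named here, only Sgk1 crossed the level, with 5.81 against a level of 5.93 on control 1. For Pou5f1, Mycn and Nanog too, all 3 arrays placed the gene on the same side of the level.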

How the data were processed

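Affymetrix arrays of 8 pre-iPSC samples were deposited as 1 table of log2 expression values for 45101 probe sets. The authors made these log2 values with RMA, per the submitters' processing notes, while the sources used here do not give its version or settings. Only the 3 control arrays entered the main fit. By the platform annotation, 34945 probe sets had 1 gene symbol, 932 had several, 9160 were not listed and 64 were controls. Of those with 1 symbol, 34741 had an Entrez identifier in RefSeq GRCm38.p6, and 0 symbols needed updating. Probe sets with several symbols were left out. Each gene was represented by its probe set with the highest mean over the control arrays, which gave 18193 genes, 9010 of them with more than 1 probe set.

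Each value minus its array's reference level was fitted with an intercept in limma 3.58.1 (R 4.3.3; lmFit, eBayes, two-sided), with a call at a Benjamini-Hochberg adjusted p under 0.05 over all genes. Every p-value printed comes from this fit, which takes the reference level as known without error. The script was tested on simulated data. Precision is limited by there being only 3 arrays. The genes to name were drawn from the brightest 30, each list's 4 brightest and 3 dimmest members, a fixed set of pluripotency, lineage and chromatin genes, the 10 genes above the level with the largest SD and family members above it. The text gives those that carry a description and leaves the rest in counts, and other list members were chosen after their values were seen. Members and lists were chosen with earlier results of these data known. Of 923 list entries, 852 were measured, covering 788 genes. Alternatives were other reference levels, other representative probe sets, each array left out, cyclic loess, a spread shared over all 8 arrays and a filter on dim genes. The reference at the brightest of the 27 bacterial control probe sets and the restriction to genes with 1 promoter window were chosen after seeing the data.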

Additional observations from a re-analysis of the deposited data

Results flagged for a closer look

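Probe sets without a listed gene were left out of every comparison, and some of them carried signal. Of 9160 such probe sets, 1328 (14.5%) lay over the reference level on all 3 control arrays. They stay unnamed here.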

How the results depend on the processing

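Across the 14 alternative settings of the fit, the count of genes above the reference level ran from 8505 to 10819, apart from the second-brightest probe set (4250 of 9010 genes). The count below it ran from 5513 to 8482, apart from the second-brightest probe set (3683) and the setting that leaves out the dimmest 25% of genes (1817). Tested without choosing 1 probe set per gene, 16956 probe sets lay above and 14154 below. These 3 settings test other sets of features. Leaving out 1 array gave 10012 to 10241 genes above and 6044 to 6312 below. CpG-rich promoters were commoner above than below the level under each alternative run for them. With a CpG ratio of at least 0.75 they made up 53.9% of genes above and 15.2% of genes below.

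Of 29 lists, 0 moved by over 1.5 times in percent above when 1 array was left out, with cyclic loess, with the spread shared over all 8 arrays or with the bacterial reference. Percent above moved with the second-brightest probe set to 28.6% (core factors), 19.05% (primitive endoderm), 17.9% (neural), 0% (germ cell), 11.1% (macrophage and blood), 16.7% (endothelium), 0% (muscle), 0% (liver and gut), 36.4% (imprinted) and 50% (LIF, FGF and TGF-beta). With the mean of a gene's probe sets it moved to 25.5% (fibroblast), 15.4% (neural), 2.27% (germ cell), 13.8% (macrophage and blood) and 4.55% (liver and gut). Without probe sets of suffix _x_at, _s_at or _a_at it moved to 2.56% (germ cell), 0% (2-cell stage) and 0% (liver and gut). With the array median as the reference it moved to 4% (mesendoderm), 0% (germ cell), 10.3% (macrophage and blood), 13.3% (endothelium), 5% (muscle) and 0% (liver and gut), at the 99th percentile to 13.8% (macrophage and blood) and 20% (endothelium) and at the 90th to 18.2% (liver and gut). Without the dimmest 25% of genes it moved to 20% (mesendoderm), 18.8% (germ cell), 50% (2-cell stage), 42.9% (macrophage and blood), 77.8% (endothelium), 25% (muscle) and 20% (liver and gut), since that filter removes the dim members.

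Of 292 genes named, 273 kept their call without each array, and 0 changed it with cyclic loess or the choice over all 8 arrays. Calls without control 3 followed the distance from the level and not a gene's own spread, so the count of 273 is a limited check. With the shared spread Lama1 and Sox18 became undecided. With the reference at the 90th percentile Cbx7, Cldn6, Dlk1, Dppa3, Dppa4, Gata4, Gata6, Krt18, Lama1, Mecom, Mirg, Mixl1, Mycl, Prdm16, Sox17, Thy1, Twist2 and Zeb2 became undecided, and at the 99th Cbx8, Csf1r, Esam, Glis1, Meg3, Rbfox3, Ror1, Sgk1, Sox1, Tek and Vmn1r44. At the 90th Axin2, Cdx2, Dcn, Esrrb, Gbx2, Otx2, Rhox6 and Rhox9 gained a call above. At the 99th and with the array median Bmp4, Cbx3, Cldn7, Foxd3, Snai2, Tex19.1, Xist and Zfp352 gained a call below. With the array median Atf3, Cd68, Cldn4, Kdr, Kit, Nefl, Oas1f, Prm1, Ror1, Sgk1, Sox1 and Tek became undecided. With the second-brightest probe set Eng, Klf4, Meg3, Nid1, Nodal, Runx1 and Spry2 became undecided. Snai2, Xist and Zfp352 gained a call below there and with the mean of the probe sets. With that mean Csf1r, Gnas, Kdm5d, Kit, Runx1, Sox1, Tbx18, Utf1 and Uty became undecided. Without the 3 suffixes Meg3 became undecided, and Snai2 and Xist gained a call below. With the bacterial reference Pax9 and Prdm16 became undecided, Cldn7 gained a call below, and Otx2 and Rhox9 gained a call above. Some signs turned, given as log2 distance from the reference. With the second-brightest probe set these were Axin2 (-2.66), Cbx2 (-1.19), Cbx8 (-1.26), Cdx2 (-1.11), Col1a2 (-1.93), Csf1r (-0.12), Dcn (-2.00), Eed (-1.84), Eif2s3y (-2.44), Esrrb (-1.20), Flt1 (-1.001), Gnas (-0.71), Hoxd13 (-0.21), Kdm5d (-1.21), Kit (-0.78), Map2 (-1.05), Pax9 (-2.81), Prm1 (-3.42), Rbfox3 (-0.80), Ror1 (-1.23), Setdb1 (-0.53), Smyd3 (-0.75), Sox1 (-0.87), Tbx15 (-0.92), Tbx18 (-0.99), Tfcp2l1 (-2.70), Tpt1 (-2.15) and Utf1 (-0.89). With the mean of the probe sets they were Axin2 (-1.22), Cbx8 (-0.24), Cdx2 (-0.45), Col1a2 (-1.60), Dcn (-0.91), Esrrb (-0.89), Flt1 (-0.85), Map2 (-0.53), Meg3 (-0.73), Ncam1 (-0.32), Nid1 (-0.30), Pax9 (-1.89), Prm1 (-1.92), Rbfox3 (-0.70), Ror1 (-0.53) and Tfcp2l1 (-1.07). Without the 3 suffixes they were Col1a2 (-1.92), Csf1r (-0.11), Esrrb (-1.19), Gnas (-0.69), Ncam1 (-0.42), Nfix (-0.73), Setdb1 (-0.52), Tmsb10 (-0.88) and Tpt1 (-2.14). With the array median as the reference they were Axin2 (-0.81), Cbx8 (-0.25), Cdx2 (-0.83), Col1a2 (-0.99), Csf1r (-0.47), Dcn (-0.85), Dppa2 (-0.95), Eomes (-0.024), Esam (-0.30), Esrrb (-0.82), Flt1 (-0.53), Gbx2 (-0.71), Gdf9 (-0.49), Glis1 (-0.21), Meg3 (-0.30), Olfr15 (-0.57), Pax9 (-0.70), Rbfox3 (-0.30), Runx1 (-0.51), Sox18 (-0.58), Vmn1r44 (-0.20) and Zfp42 (-0.054). At the 99th percentile they were Axin2 (-0.33), Cdx2 (-0.36), Col1a2 (-0.51), Dcn (-0.37), Esrrb (-0.34), Flt1 (-0.053), Gdf9 (-0.011), Olfr15 (-0.092), Pax9 (-0.23), Runx1 (-0.035) and Sox18 (-0.10). Apart from the settings whose construction shows it, the cause was not tested. Signal near the reference level limits what can be called. No paired analysis was possible because only 1 group of samples enters.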
